A study of Saccharomyces cerevisiae with 12 samples.

Results

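The genes described here encode the proteins of the cytosolic ribosome of the budding yeast Saccharomyces cerevisiae. They were chosen by name: every row of the deposited table whose symbol is RPL or RPS with a number and an optional A or B, together with the stalk genes RPP0, RPP1A, RPP1B, RPP2A and RPP2B. The rule found 137 genes among 7126 rows, of which 81 belong to the large subunit (46 proteins) and 56 to the small subunit (32 proteins). In 59 cases a protein is encoded by an A copy and a B copy, and 19 genes are single-copy. All 137 passed the filter on low values, and the lowest count of any of them in any library was 42. RNA was sequenced from 12 libraries of strain background CEN.PK, 2 for each of 6 genotypes: wild type (WT), set2Δ, cho2Δ, cho2set2Δ, opi1Δ and opi1set2Δ. All cells had grown to log phase in rich YPL medium, were washed and were kept for 1 h in minimal SL medium, so no library shows the state before the change of medium. SET2 encodes the methyltransferase of histone H3 lysine 36, CHO2 an enzyme of phosphatidylcholine synthesis by methylation, and OPI1 a repressor of phospholipid synthesis genes. Separate cultures or clones are not mentioned for the replicates in the labels, so the p-values measure only the spread between these samples.

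Ribosomal protein genes are transcribed at high rates in growing yeast and are repressed together when nutrients become scarce. The DNA-binding protein Rap1 sits at most of their promoters and recruits the activators Fhl1 and Ifh1, while Crf1 can take the place of Ifh1 on Fhl1 when signalling through the TOR kinase falls. Most of these proteins are encoded by a pair of genes left from an ancient genome duplication, and the copies can differ in level, in introns and in promoter.

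Total counts ran from 7383001 to 9461609 per library. SET2, CHO2 and OPI1 had 0 to 13 counts wherever the label says they were deleted, except that 50 SET2 counts were found in the library labelled cho2set2 replicate 1, against 153 and 181 in WT and 0 in cho2set2 replicate 2. The main cho2set2Δ results below are also given with this library left out, except those of single pairs of A and B copies. WT replicate 2 also stood apart, with 136 of the 137 genes lower than in WT replicate 1. A bulk library cannot tell fewer transcripts per cell from fewer cells that make them. Whether reads were counted by strand is not given in the sources used here, and 16 of the 137 genes overlap a row on the opposite strand, so their counts may include reads of that row.

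Together the 137 genes took a small share of each library. It was 1.78% and 1.23% of all gene counts in the WT libraries, 2.07% and 2.05% in set2Δ, 1.88% and 1.61% in cho2Δ, 2.02% and 1.79% in cho2set2Δ (the former in the library labelled replicate 1), 1.42% and 1.34% in opi1Δ, and 2.36% and 2.72% in opi1set2Δ. Both opi1set2Δ libraries lay above all 10 others, and both opi1Δ libraries lay below all others except WT replicate 2. Large and small subunit shares moved together, with a ratio of large to small subunit counts between 1.19 and 1.32 in all 12 libraries. The 5 genotypes other than WT had closer replicates than WT itself.

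**Figure D1:**
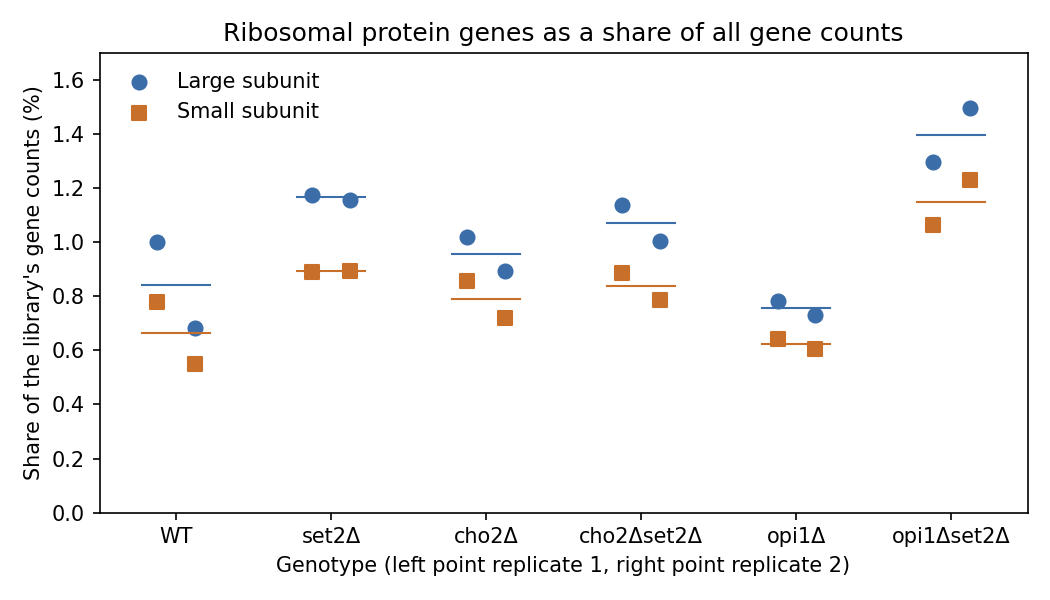
Share of each library's gene counts (%, vertical axis) taken by the large subunit genes (blue circles) and small subunit genes (orange squares) in the 6 genotypes; each point is 1 library and each line the mean of 2. The opi1set2Δ points lie highest for both subunits (1.30% and 1.495% for the large, 1.06% and 1.23% for the small subunit), and the 2 WT points lie far apart.

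Levels per length spanned a wide range. The mean in WT ran from 19.7 FPKM (counts per kilobase of coding length, scaled to the library total) to 6856 FPKM, with a median of 203.2 FPKM, and the median was 177.7 FPKM for large and 228.6 FPKM for small subunit genes. RPL41A and RPL41B, which encode the smallest protein of the ribosome from only 78 coding bases each, were highest, at 7769 and 5943 FPKM in the WT libraries for RPL41A and 4505 and 3259 FPKM for RPL41B. They were followed by RPS30A (1772 and 1364 FPKM), RPS25A (957.5 and 717.8 FPKM) and RPS26A (800.0 and 539.6 FPKM), all of the small subunit. Per length, the lowest were RPL7B (24.5 and 14.8 FPKM), RPS9A (47.5 and 24.4 FPKM), RPL22B (40.4 and 32.1 FPKM), RPS28B (37.1 and 36.8 FPKM) and RPL18B (44.1 and 34.3 FPKM). A level per length is least certain for genes as short as RPL41A and RPL41B, because few positions can give a read.

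Across all 6 genotypes, 115 of the 137 genes differed in at least 1 (edgeR quasi-likelihood F-test, Benjamini-Hochberg adjusted p < 0.05), against 61.2% of all 6580 genes tested. By genotype mean, 105 of the 137 were highest in opi1set2Δ, while 71 were lowest in opi1Δ and 53 in WT. Such an order was not counted over all genes tested, so it is not shown to be particular to these genes.

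The loss of SET2 was studied in 3 backgrounds that share no library, and the count of ribosomal protein genes that passed was highest in cells without OPI1. In opi1set2Δ against opi1Δ, 116 of the 137 rose and 0 fell (edgeR quasi-likelihood test, adjusted p < 0.05), where 23.5% of all genes tested rose and 20.8% fell. Their median log2 change was 0.69, against 0.01 for all genes tested, and 24 rose more than 2-fold. In set2Δ against WT, 57 rose and 0 fell, where 18.5% of all genes rose and 15.9% fell, and the median log2 change was 0.38 against -0.01 for all genes. In cho2set2Δ against cho2Δ, 3 rose and 0 fell, where 11.3% of all genes rose and 5.58% fell, and the median log2 change was 0.03. At an unadjusted p under 0.05 the cho2set2Δ comparison had 9 genes, and without the library labelled cho2set2 replicate 1 it had 1 call (RPL18B) and a median of -0.04. Leaving out cho2Δ replicate 1 or cho2set2Δ replicate 2 gave 0 calls (medians 0.12 and 0.10), and leaving out cho2Δ replicate 2 gave 1 (median -0.05).

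The set2Δ count depended on single libraries. Leaving out WT replicate 2 gave 15 genes (median log2 change 0.16), leaving out set2Δ replicate 1 gave 19, and leaving out WT replicate 1 gave 86 (median 0.64, against 0.70 for opi1set2Δ against opi1Δ in the same fit). For opi1set2Δ against opi1Δ the count ran from 82 to 123 with 1 library left out, and was 134 when libraries were scaled by total counts, a scaling that put the median of all genes at 0.21.

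**Figure D2:**
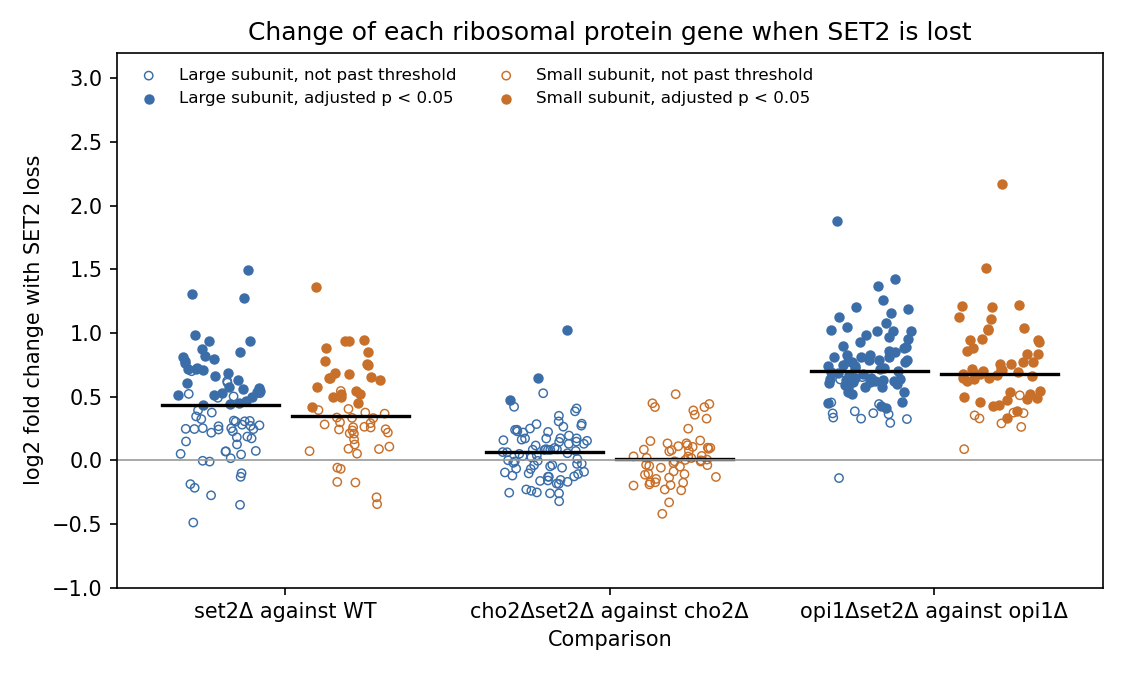
Log2 fold change of each of the 137 genes with SET2 loss (vertical axis) in WT, cho2Δ and opi1Δ backgrounds, by subunit; filled points passed adjusted p < 0.05 and black lines are medians. The cloud lies mostly above 0 in the opi1Δ background (medians 0.70 for the large and 0.68 for the small subunit), lower in WT (0.43 and 0.35) and around 0 in cho2Δ (0.07 and 0.01).

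All 57 genes that rose in set2Δ were among the 116 that rose in opi1set2Δ (all of the former and 49.1% of the latter), and the 3 that rose in cho2set2Δ were in both. As 84.7% of the 137 rose in opi1set2Δ, most of any 57 of them would be shared by number alone. Each gene's change was largest in the opi1Δ background for 121 genes and smallest in the cho2Δ background for 114. Without WT replicate 1 the first number was 80, without WT replicate 2 it was 133 and the second 88, and without the library labelled cho2set2 replicate 1 they were 121 and 120. These counts were not made over all genes tested. The number of all genes called had the same order, with 2914 in the opi1Δ, 2263 in the WT and 1109 in the cho2Δ background. Over the 137 genes, Spearman's rho between the log2 changes was 0.55 for the WT and opi1Δ backgrounds, 0.48 for the cho2Δ and opi1Δ backgrounds and 0.20 for the WT and cho2Δ backgrounds. Without that cho2set2 library the last 2 were 0.36 and 0.30. These describe genes that share libraries and are no test.

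With SET2 loss the 2 subunits did not stand apart. In set2Δ, 34 of 81 large and 23 of 56 small subunit genes rose, and in opi1set2Δ 68 of 81 and 48 of 56. Genes with an intron (89 of the 137, against 329 of 6007 protein-coding genes of the annotation) and genes without one had medians of 0.37 and 0.43 in set2Δ and 0.68 and 0.71 in opi1set2Δ. Of the 19 single-copy genes, 11 rose in set2Δ and 17 in opi1set2Δ.

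Among large subunit genes, RPL3 showed the widest change. RPL3 (YOR063W, chromosome XV, 444686 to 445849, plus strand, a single exon) encodes the protein closest to the peptidyl transferase centre. Its TMM-scaled counts-per-million (CPM) were 189.0 and 73.7 in WT and 379.7 and 360.1 in set2Δ. They were 113.2 and 155.0 in cho2Δ and 290.1 and 256.1 in cho2set2Δ, and 79.0 and 83.6 in opi1Δ and 289.9 and 310.4 in opi1set2Δ. In each background both libraries without SET2 lay above both with it. RPL3 rose by 1.495 ± 0.29 (SE) on the log2 scale in set2Δ (edgeR adjusted p = 0.00114), by 1.03 ± 0.29 in cho2set2Δ (adjusted p = 0.0228) and by 1.88 ± 0.29 in opi1set2Δ (adjusted p = 0.000144). With the library labelled cho2set2 replicate 1 left out, the cho2set2Δ change was 0.94 and did not pass (edgeR adjusted p = 0.0968).

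RPL10, whose protein joins the large subunit at a last step of its maturation, and RPL18B were the other 2 that rose in all 3 backgrounds. RPL10 stood at 467.3 and 317.5 CPM in WT, 683.2 and 646.7 in set2Δ, 441.8 and 477.4 in cho2Δ, 642.2 and 634.8 in cho2set2Δ, 410.4 and 399.98 in opi1Δ, and 681.7 and 717.0 in opi1set2Δ. The groups with and without SET2 did not overlap in any background, and the log2 change was 0.76 ± 0.15, 0.47 ± 0.15 and 0.79 ± 0.15 in turn. In cho2set2Δ RPL10 passed only just (edgeR adjusted p = 0.0482), and not without the library labelled replicate 1 (0.13). RPL18B had log2 changes of 0.87 ± 0.17, 0.65 ± 0.16 and 0.60 ± 0.17, and 0.78 in cho2set2Δ without that library.

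RPL5 and RPL11A or RPL11B encode the proteins that carry 5S rRNA into the large subunit. RPL5 was at 125.9 and 70.8 CPM in WT, 270.3 and 215.6 in set2Δ, 98.2 and 98.2 in opi1Δ, and 201.1 and 213.3 in opi1set2Δ. It rose by 1.31 ± 0.20 in set2Δ (edgeR adjusted p = 0.00019) and by 1.08 ± 0.20 in opi1set2Δ. Its log2 change in cho2set2Δ was 0.38 ± 0.20 and did not pass (edgeR adjusted p = 0.208), and 0.40 without the library labelled replicate 1. RPL11A and RPL11B rose in opi1set2Δ by 0.62 ± 0.15 and 0.89 ± 0.16.

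RPL8A and RPL4A, whose proteins lie in the body of the large subunit and, for the latter, line the exit tunnel, completed the 5 largest rises in set2Δ together with RPS26B. RPL8A was at 48.9 and 31.1 CPM in WT and 114.8 and 78.5 in set2Δ, a rise of 1.27 ± 0.21. RPL4A was at 128.4 and 74.0 CPM in WT and 260.1 and 139.5 in set2Δ, a rise of 0.98 ± 0.25, and lost its call without set2Δ replicate 1 (log2 change 0.46, edgeR adjusted p = 0.196) or WT replicate 2 (0.64, edgeR adjusted p = 0.0971). The set2Δ libraries themselves differ widely for RPL4A.

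The stalk genes encode the flexible arm that recruits translation factors, with RPP0 at its base. RPP0 was at 41.6 and 35.8 CPM in opi1Δ and 73.2 and 134.3 in opi1set2Δ, and rose by 1.42 ± 0.29 (edgeR adjusted p = 0.00107). In set2Δ it rose by 0.78 ± 0.28 (edgeR adjusted p = 0.0424). RPP1A, RPP1B and RPP2B rose in opi1set2Δ by 0.95 ± 0.23, 0.81 ± 0.21 and 1.16 ± 0.26, while RPP2A had a log2 change of 0.34 ± 0.20 that did not pass. None of the 4 passed in set2Δ, with log2 changes between 0.25 and 0.52.

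Among small subunit genes, RPS26B showed the widest change. Its protein sits where messenger RNA leaves the ribosome. RPS26B was at 18.03 and 10.9 CPM in WT, 39.9 and 34.4 in set2Δ, 20.8 and 14.6 in cho2Δ, 27.5 and 23.2 in cho2set2Δ, 9.115 and 9.74 in opi1Δ, and 38.2 and 47.1 in opi1set2Δ. In each background the libraries without SET2 were the higher ones. It rose by 1.36 ± 0.24 in set2Δ (edgeR adjusted p = 0.000556) and by 2.17 ± 0.25 in opi1set2Δ (edgeR adjusted p = 9.78e-06), the widest change of any of the 137 genes in these comparisons, and had a log2 change of 0.52 ± 0.24 in cho2set2Δ that did not pass (edgeR adjusted p = 0.16), or 0.39 without the library labelled replicate 1.

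RPS9A and RPS9B encode a protein that affects the accuracy of decoding. RPS9A was at 14.5 and 9.22 CPM in opi1Δ and 32.8 and 34.6 in opi1set2Δ, and rose by 1.51 ± 0.28. RPS9B rose by 0.93 ± 0.23. RPS3 and RPS2, whose proteins line the entry channel for messenger RNA, rose in opi1set2Δ by 1.22 ± 0.21 and 0.70 ± 0.16, and RPS3 also rose in set2Δ by 0.65 ± 0.20.

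The ubiquitin fusion genes RPL40A, RPL40B and RPS31, which release ubiquitin together with a ribosomal protein, rose in opi1set2Δ by 0.57 ± 0.16, 0.63 ± 0.15 and 0.95 ± 0.18. In set2Δ RPS31 and RPL40B rose by 0.65 ± 0.18 and 0.44 ± 0.15. Among genes known for feedback of the protein on its own splicing, RPS14B rose in opi1set2Δ (0.46 ± 0.14), while RPL30 (0.32 ± 0.19) and RPL22B (0.37 ± 0.30) did not pass.

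Of the 21 genes that did not pass in opi1set2Δ against opi1Δ, 20 had a positive log2 change, and RPL15B had -0.14 ± 0.16. The lowest positive value was that of RPS28B, 0.09 ± 0.26, whose transcript is degraded by a feedback of its own protein.

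Within the set2Δ comparison, the changes were ordered by coding length. Spearman's rho between coding length and log2 change was 0.58 over the 137 genes, and 0.07 over 3307 other genes within the same range of lengths (78 to 1164 bases). Of the 47 shortest genes (up to 384 bases) 6 rose, of the 45 in the middle 19, and of the 45 longest (555 bases or more) 32, with medians of 0.22, 0.39 and 0.64. Short genes were among the lowest values, with RPL41B at -0.49 ± 0.21, RPS30B at -0.34 ± 0.23, RPS30A at -0.29 ± 0.15 and RPL41A at -0.22 ± 0.17. The longer genes RPL14B (417 bases, -0.35 ± 0.15) and RPL15B (615 bases, -0.28 ± 0.15) lay there too, and none of the 6 passed. With any 1 library left out rho stayed between 0.55 and 0.58. In opi1set2Δ against opi1Δ rho was 0.25 (0.18 to 0.30 with 1 library left out), and in cho2set2Δ against cho2Δ 0.01 (0.16 without the library labelled cho2set2 replicate 1).

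The same order appears library by library. The log2 ratio of the median FPKM of the longest to the shortest genes was -0.26 and -0.31 in the set2Δ libraries and between -0.90 and -0.61 in all 10 others, cho2set2Δ (-0.64 and -0.61) and opi1set2Δ (-0.62 and -0.70) included. Among other genes of the same lengths, the medians in set2Δ were -0.22, -0.24 and -0.21 for the short, middle and long genes. Fragment sizes and RNA integrity per library are not given in the sources used here, and their part in this order was not tested.

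**Figure D3:**
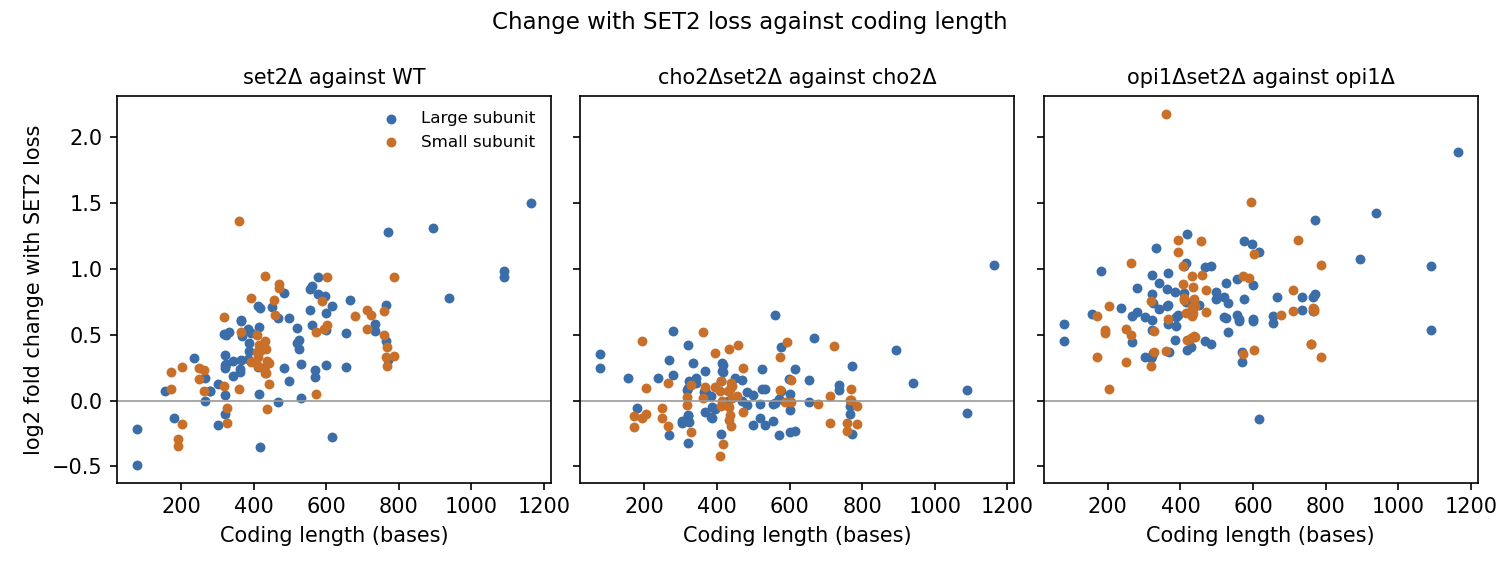
Log2 fold change with SET2 loss (vertical axis) against coding length in bases (horizontal axis) for the 137 genes in each of the 3 backgrounds, large subunit in blue and small subunit in orange. The points climb with length in the set2Δ panel (rho 0.58), less in the opi1set2Δ panel (0.25) and not in the cho2set2Δ panel (0.01).

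The lipid mutations with SET2 present changed few of the genes. In cho2Δ against WT 0 of the 137 rose or fell (edgeR adjusted p < 0.05), where 0.243% of all genes rose and 1.47% fell. The median log2 change was 0.27, or 0.535 without WT replicate 1 and 0.04 without WT replicate 2. In this comparison 43 genes had an unadjusted p under 0.05, DESeq2 called 5, leaving out WT replicate 1 gave 18, and leaving out opi1set2Δ replicate 1 or 2 gave 3 or 4. In opi1Δ against WT 2 rose and 2 fell, where 8.94% of all genes rose and 8.77% fell. With total counts as the scaling it was 0 and 5, and with scaling factors taken without the ribosomal protein genes 0 and 2. Leaving out WT replicate 2 gave 22 genes, all lower, with a median of -0.26, and leaving out WT replicate 1 gave 4 higher and 1 lower with a median of 0.22, so the direction of the median turned with the WT library used, while leaving out cho2Δ replicate 1 gave 2 and opi1Δ replicate 2 gave 1.

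RPS7B, the lesser copy of a small subunit pair, fell furthest. It was at 45.5 and 38.5 CPM in WT, 22.8 and 17.01 in opi1Δ, 45.2 and 41.9 in set2Δ, and 25.02 and 25.8 in opi1set2Δ, so that all 4 libraries without OPI1 lay below those of WT and set2Δ. It fell by 1.08 ± 0.18 on the log2 scale in opi1Δ (edgeR adjusted p = 0.00071). It also fell in opi1set2Δ against set2Δ, by 0.78 ± 0.17 (edgeR adjusted p = 0.00505). RPS15 fell in opi1Δ by 0.50 ± 0.15, and RPS28B and RPS16A rose by 0.82 ± 0.27 and 0.44 ± 0.14, with edgeR adjusted p between 0.0341 and 0.0469 for these 3.

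In cells without SET2, the loss of OPI1 was joined by a rise of part of the group. In opi1set2Δ against set2Δ 34 rose and 3 fell, where 13.5% of all genes rose and 12.3% fell. The 34 held 14 of the 81 large and 20 of the 56 small subunit genes. The median log2 changes were 0.27 for the large and 0.32 for the small subunit, and a difference between the subunits was not tested. By length, the 34 held 18 of the 47 shortest but 2 of the 45 longest genes. The 5 largest rises were those of RPL41A (1.06 ± 0.17), RPS30A (1.05 ± 0.15), RPS28A (0.92 ± 0.21), RPL41B (0.86 ± 0.21) and RPS25A (0.83 ± 0.17), all with short coding sequences. RPS7B, RPL4B (-0.73 ± 0.18) and RPS11A (-0.48 ± 0.16) fell. Without opi1set2Δ replicate 2 the total was 11 genes, and without set2Δ replicate 1 or 2 it was 13 or 14. In cho2set2Δ against set2Δ RPL41A (0.65 ± 0.17) and RPL14B (0.57 ± 0.15) rose and RPL4B (-0.72 ± 0.18), RPL9A (-0.57 ± 0.15) and RPS11A (-0.55 ± 0.16) fell, where 4.01% of all genes rose and 3.88% fell. With total count scaling 1 rose and 5 fell, and without the library labelled cho2set2 replicate 1 edgeR called 0 (14 at an unadjusted p under 0.05). The total of 5 became 0 and 2 without set2Δ replicate 1 and 2, 3 without either opi1Δ library, 10 without either WT library and 8 without either opi1set2Δ library, and DESeq2 called 9. These comparisons share the set2Δ libraries, whose balance of long to short genes stands apart as given above, and the part of that balance in them was not tested.

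Whether the change with SET2 loss itself differed between backgrounds was tested with interaction terms. For cho2 the median difference from the WT background was -0.38 on the log2 scale and 1 gene passed (lower, where 0.547% of all genes were lower and 0.365% higher). RPS0B, a small subunit gene on chromosome XII, was at 104.6 and 84.2 CPM in WT, 159.0 and 143.5 in set2Δ, 144.1 and 124.7 in cho2Δ, and 112.9 and 116.4 in cho2set2Δ. Both set2Δ libraries lay above both WT libraries, and both cho2set2Δ libraries below both cho2Δ libraries, and the difference of the changes was -0.91 ± 0.19 (edgeR adjusted p = 0.0343), or -0.89 without the library labelled cho2set2 replicate 1 (edgeR adjusted p = 0.165). For opi1 the median difference was 0.30 and 2 genes passed, both higher, where 2.84% of all genes were higher and 2.63% lower. RPS22B had 0.92 ± 0.21 (edgeR adjusted p = 0.0271) and RPS30A 0.83 ± 0.21 (edgeR adjusted p = 0.0395). For the other 134 genes a difference between backgrounds was not shown, although the counts of 57, 3 and 116 are far apart. Leaving out WT replicate 1 gave 25 genes in the cho2 term and 0 in the opi1 term, with medians of -0.65 and 0.05, and leaving out WT replicate 2 gave 0 and 23, with medians of -0.14 and 0.57. Leaving out opi1set2Δ replicate 1 gave 22 in the opi1 term, leaving out set2Δ replicate 2 gave 2 in the cho2 term and leaving out either opi1set2Δ library gave 3 there. The call or calls were lost without set2Δ replicate 1, either cho2Δ library, either cho2set2Δ library or either opi1Δ library in the cho2 term, and without either set2Δ library, either opi1Δ library or opi1set2Δ replicate 2 in the opi1 term. Both terms use the set2Δ libraries, whose balance of long to short genes stands apart, and both follow coding length (Spearman's rho -0.51 for cho2 and -0.415 for opi1 over the 137 genes); the part of that balance in them was not tested.

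RPS22B was at 66.9 and 49.5 CPM in WT, 72.6 and 69.6 in set2Δ, 52.2 and 50.3 in opi1Δ, and 105.5 and 132.4 in opi1set2Δ, the last 2 the highest of the 12 libraries. RPS22B carries the small nucleolar RNA snR44 within its locus. RPS30A was at 331.6 and 264.7 CPM in WT, 232.0 and 255.5 in set2Δ, 363.1 and 332.4 in opi1Δ, and 468.8 and 538.7 in opi1set2Δ. It was thus lower in both set2Δ libraries than in WT and higher in both opi1set2Δ libraries than in opi1Δ. RPL41B showed the same arrangement, with 342.5 and 256.9 CPM in WT, 215.0 and 212.1 in set2Δ, 268.5 and 296.2 in opi1Δ, and 307.6 and 466.4 in opi1set2Δ, but its interaction term did not pass (0.94 ± 0.29, edgeR adjusted p = 0.0691).

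The A and B copies of a protein were compared by the ratio of their CPM within a library, which does not depend on scaling. Coding lengths are equal in 54 of the 59 pairs and differ by 3 to 12 bases in the other 5. Coding sequences of the copies were 70.7% to 99.4% identical, with a median of 93.2%. How the counting treated reads that match both copies is not given in the sources used here. Sequence that both copies share is therefore given with each pair, as the share of 50-base windows of the coding sequence that occur again in the genome or in another member. This share was 0% for 57 genes and over 50% for 16. It was 69.0% for RPL41 and 72.7% for RPL4, whose copies are given above as separate genes. How their reads were split between the copies is therefore uncertain. RPS26 and RPL1 show both ends of this range. The first 90 coding bases of each are printed from RefSeq (build R64, the same coordinates as in the deposited table), with capitals at the bases where the copies differ. RPS26A lies at chrVII:148499-148588 (minus strand), RPS26B at chrV:423952-424041 (plus strand), RPL1A at chrXVI:135790-135879 (plus strand) and RPL1B at chrVII:254641-254730 (plus strand).
RPS26A: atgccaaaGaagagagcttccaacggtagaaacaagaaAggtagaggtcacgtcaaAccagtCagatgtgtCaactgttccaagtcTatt
RPS26B: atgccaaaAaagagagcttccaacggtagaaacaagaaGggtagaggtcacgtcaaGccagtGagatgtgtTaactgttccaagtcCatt
RPL1A: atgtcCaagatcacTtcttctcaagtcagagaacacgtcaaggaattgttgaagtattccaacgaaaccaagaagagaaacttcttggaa
RPL1B: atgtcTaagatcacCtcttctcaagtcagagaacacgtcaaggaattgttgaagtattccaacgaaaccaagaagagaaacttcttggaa
The RPS26 copies differ at 6 of these bases and at 28 of 360 in all, and no 50-base window is shared. The RPL1 copies differ at 2 of these bases and at 4 of 654 in all, and 80.99% of windows are shared, so the RPL1 ratio (a log2 ratio of -0.90 to -0.50 over the 12 libraries) rests on reads near a few positions or on how shared reads were assigned.

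In most pairs the same copy was the higher one in every genotype. The A copy was higher in all 12 libraries in 26 pairs, the B copy in 23, and the order changed among libraries in 10. In both WT libraries 24 pairs were more than 2-fold and 9 more than 4-fold apart. Per length, the most unequal pair in WT was RPS26, with RPS26A at 800.0 and 539.6 FPKM and RPS26B at 51.4 and 30.0 FPKM. It was followed by RPS28 (RPS28A at 685.5 and 494.8, RPS28B at 37.1 and 36.8 FPKM), RPL7 (RPL7A at 267.3 and 190.7, RPL7B at 24.5 and 14.8 FPKM) and RPL36 (RPL36A at 97.9 and 58.6, RPL36B at 764.5 and 569.3 FPKM). The most equal pairs were RPL27 (202.9 and 118.5 FPKM for RPL27A, 186.8 and 122.9 FPKM for RPL27B), RPS6 (222.6 and 162.8 for RPS6A, 217.3 and 151.6 for RPS6B) and RPL11 (188.1 and 125.6 for RPL11A, 197.9 and 133.1 for RPL11B). In RPS6 and RPL11 72.0% and 60.9% of windows are shared, in RPL7 56.85% and in RPL36 12.2%, and in RPS28 and RPL27 none.

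The balance of the copies moved with SET2 loss in part of the pairs. The mean change of log2(A/B) over the 3 backgrounds was tested per pair with an exact permutation test, 2-sided, in which SET2 labels were exchanged within each background (216 regroupings, smallest possible p = 0.00926, not adjusted over the 59 pairs). By this exact test 27 of the 59 pairs had p < 0.05 (45.8%), 14 of them toward the A copy and 13 toward the B copy, and 12 of the 27 were at the smallest p. The count was 24 without the library labelled cho2set2 replicate 1 and ran from 21 to 29 over all single libraries left out. For single pairs, the mean shifts and exact permutation p-values below include that library and are not given without it. Where the groups with and without SET2 do not overlap, this would hold without that library too. No share over pairs of other genes is at hand, so the 45.8% is not shown to be particular to paralogs. Most shifts were small: the median size was 0.18 and only RPS26, RPL15, RPL8 and RPL14 exceeded 0.5 on the log2 scale.

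RPS26 moved toward its minor copy. The log2 ratio of RPS26A to RPS26B was 3.96 and 4.17 in WT and 2.66 and 2.90 in set2Δ, 3.78 and 4.12 in cho2Δ and 3.43 and 3.42 in cho2set2Δ, and 4.71 and 4.41 in opi1Δ and 2.97 and 2.57 in opi1set2Δ. The 6 libraries without SET2 lay below all 6 with SET2. The mean shift was -1.20 (exact permutation p = 0.00926), and RPS26A itself had log2 changes of 0.09 ± 0.16, 0.02 ± 0.16 and 0.37 ± 0.16 in the WT, cho2Δ and opi1Δ backgrounds that did not pass.

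RPL15, a large subunit protein, moved toward its A copy, and here the other copy had negative log2 changes. RPL15A was at 184.2 and 95.1 CPM in WT, 217.4 and 240.2 in set2Δ, 118.6 and 113.5 in opi1Δ, and 252.6 and 254.6 in opi1set2Δ, and rose by 0.71 ± 0.21 and 1.13 ± 0.21. RPL15B was at 77.9 and 72.0 CPM in WT, 55.2 and 68.6 in set2Δ, 65.7 and 54.4 in opi1Δ, and 48.4 and 60.7 in opi1set2Δ, with log2 changes of -0.28 ± 0.15 and -0.14 ± 0.16 (and -0.23 ± 0.16 in cho2set2Δ) that did not pass. The log2 ratio shifted by 1.07, 0.46 and 1.27 in the WT, cho2Δ and opi1Δ backgrounds (mean 0.93, exact permutation p = 0.00926), with all 6 libraries without SET2 above the 6 with it. These copies share 11.8% of windows.

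RPL8 and RPS4 also had no overlap between the 6 libraries with and the 6 without SET2. The log2 ratio of RPL8A to RPL8B was between -1.26 and -0.91 with SET2 and between -0.84 and 0.05 without it (mean shift 0.69, exact permutation p = 0.00926), with 6.93% of windows shared. The ratio of RPS4A to RPS4B was between -0.82 and -0.50 with SET2 and between -0.42 and 0.03 without it (mean shift 0.48, exact permutation p = 0.00926), although 46.8% of the windows of these copies are shared. In both pairs the minor A copy came nearer to the B copy. RPL14 shifted by 0.69 toward RPL14A (exact permutation p = 0.0278), with shifts of 1.11 and 0.89 in the WT and opi1Δ backgrounds and 0.08 in cho2Δ, and 42.1% of its windows are shared.

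**Figure D4:**
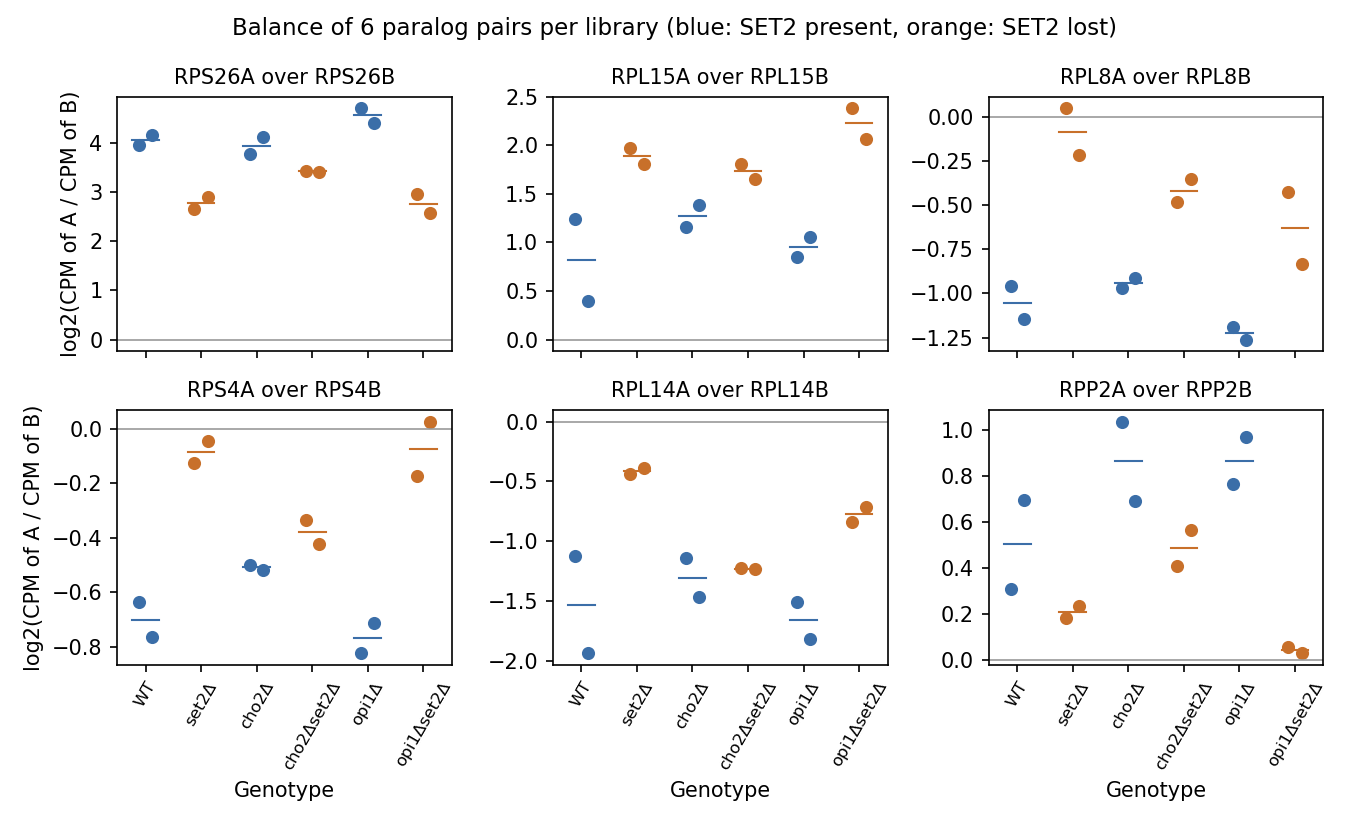
Log2 ratio of the A to the B copy (CPM, vertical axis) in each library for 6 pairs, by genotype; blue points are libraries with SET2, orange points libraries without it, and lines are means of 2. For RPS26 the orange points lie below all blue ones, and for RPL15, RPL8 and RPS4 above all of them; the RPL14 and RPP2 groups overlap.

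Further pairs among the 10 widest shifts were RPP2 (-0.50, toward RPP2B), RPL24 (0.46), RPL21 (0.44) and RPS7 (0.44), with exact permutation p between 0.00926 and 0.0185. These 4 pairs share 0%, 4.06%, 6.45% and 0.76% of windows in turn. The smallest mean shifts were those of RPL36 (0.01), RPL7 (-0.01) and RPS1 (0.01), with exact permutation p between 0.889 and 0.935. The RPL36 mean averages shifts of opposite sign, -0.285, 0.01 and 0.29 in the WT, cho2Δ and opi1Δ backgrounds, while those of RPL7 were 0.03, 0.02 and -0.09. RPS1 shares 3.48% of windows. Across the pairs the shift was of 1 sign in all 3 backgrounds for 32.

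**Figure D5:**
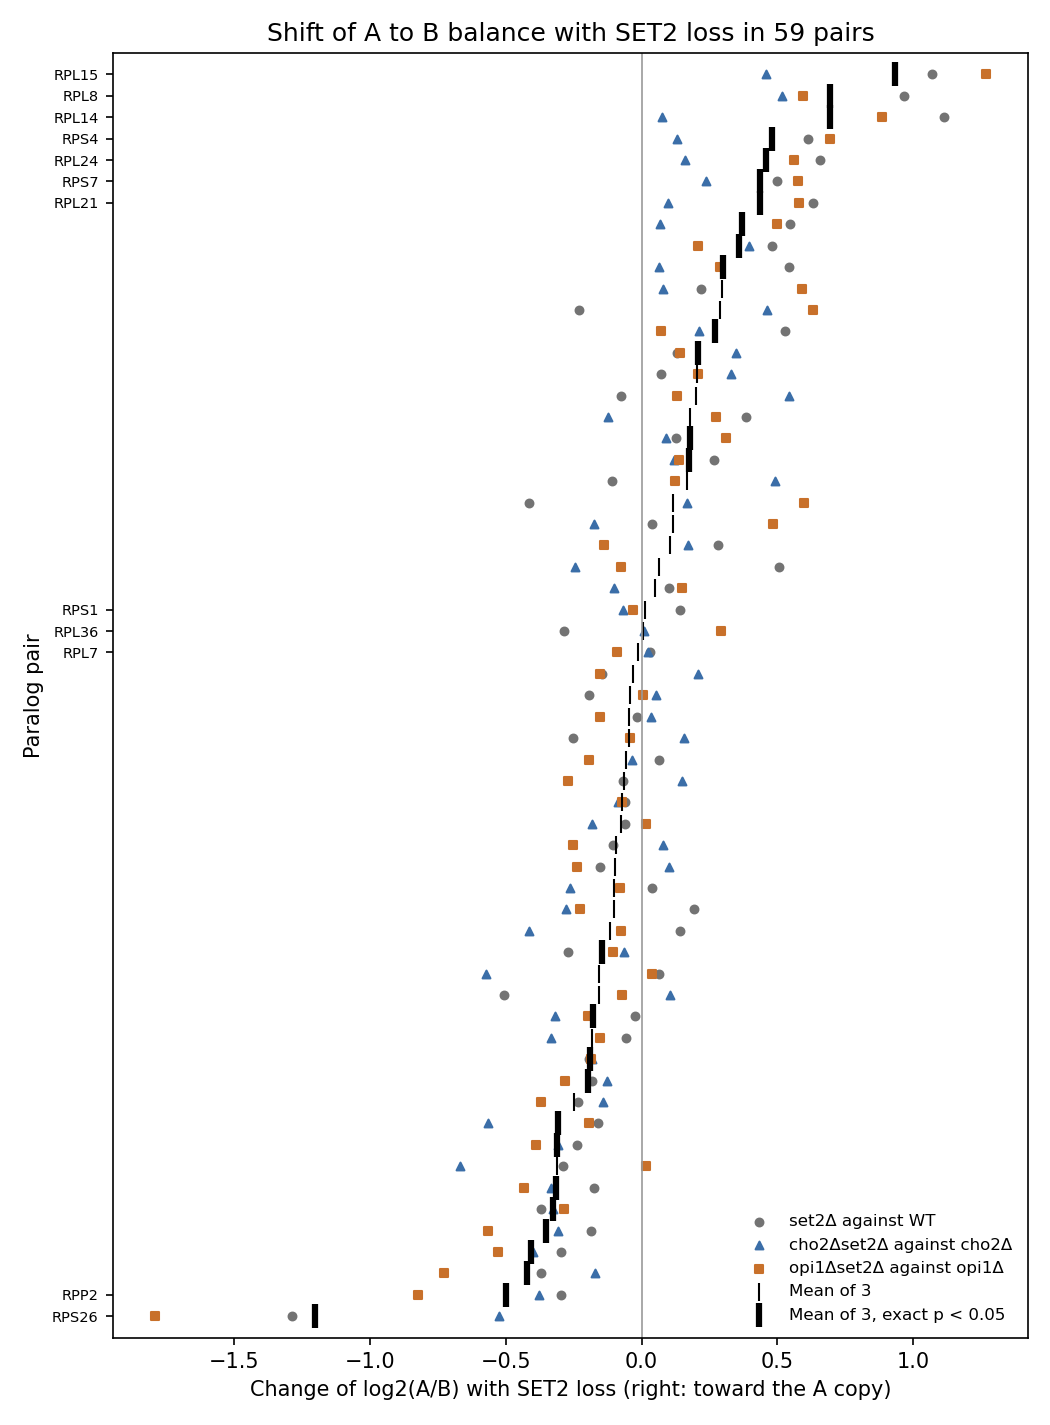
Change of log2(A/B) with SET2 loss (horizontal axis, right means toward the A copy) for the 59 pairs (vertical axis, ordered by the mean, with names for pairs whose shift is given in the text), with a marker for each background and a black bar for the mean of 3; thick bars have exact permutation p < 0.05. RPS26 stands far to the left (-1.20) and RPL15 to the right (0.93), and the cho2Δ background (blue triangles) is often nearer to 0 than the other backgrounds.

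The upstream sequences of the copies of RPL15 and RPL8 are shown because the balance of these pairs moved, and because Rap1 is the factor shared by most ribosomal protein promoters. The 200 bases from 300 bases before the start codon on are printed 5′ to 3′ on the gene's strand, from RefSeq build R64, with capitals at matches on either strand to CCNTACAT, a short form of the Rap1 binding motif. The windows are chrXII:202691-202890 for RPL15A, chrXIII:510449-510648 for RPL15B, chrVIII:36126-36325 for RPL8A and chrXII:48730-48929 for RPL8B, all on the minus strand.
RPL15A: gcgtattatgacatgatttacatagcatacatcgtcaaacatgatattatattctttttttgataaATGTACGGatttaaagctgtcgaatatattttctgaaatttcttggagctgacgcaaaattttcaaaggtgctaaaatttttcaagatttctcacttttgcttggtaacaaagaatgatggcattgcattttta
RPL15B: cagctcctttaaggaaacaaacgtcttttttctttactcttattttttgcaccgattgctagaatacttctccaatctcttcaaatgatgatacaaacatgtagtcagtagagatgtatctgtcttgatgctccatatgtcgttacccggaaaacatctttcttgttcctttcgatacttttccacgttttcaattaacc
RPL8A: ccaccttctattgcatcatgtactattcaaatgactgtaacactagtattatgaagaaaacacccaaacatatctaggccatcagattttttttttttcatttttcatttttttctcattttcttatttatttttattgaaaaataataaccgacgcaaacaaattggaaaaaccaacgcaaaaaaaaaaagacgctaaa
RPL8B: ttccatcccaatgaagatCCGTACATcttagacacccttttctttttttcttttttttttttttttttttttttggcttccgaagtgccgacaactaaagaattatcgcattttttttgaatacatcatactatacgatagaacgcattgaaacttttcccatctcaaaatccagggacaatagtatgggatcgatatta
RPL15A holds a match in this window and a further one 417 bases before its start codon, and RPL15B holds none. RPL8B holds 1 match and RPL8A none. RPS26A and RPS26B hold none within 500 bases before the start codon. A match is a description of letters and not of binding.

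Over all members, 58 or 42.3% had CCNTACAT within 500 bases before the start codon, against 5.59% of 6007 protein-coding genes. Of the 58 members with CCNTACAT, 22 rose in set2Δ and 50 in opi1set2Δ, and of the 79 without it 35 and 66.

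Genes that regulate or assemble the ribosomal proteins were counted from lists chosen with earlier results of these data known. Of 15 regulators of ribosomal protein gene transcription, 3 rose and 1 fell in set2Δ, 2 rose and 0 fell in cho2set2Δ, and 3 rose and 5 fell in opi1set2Δ, each against its parent genotype. For these lists too, the shares of all genes that rose and fell were 18.5% and 15.9%, 11.3% and 5.58%, and 23.5% and 20.8% in turn. Without the library labelled cho2set2 replicate 1, the regulators, the chaperones and the ribosome-associated proteins had as many calls in cho2set2Δ as with it, and the translation factors 3 higher and 1 lower. IFH1, the activator, was at 26.4 and 23.1 CPM in WT, 41.1 and 44.8 in set2Δ, 29.7 and 24.4 in cho2Δ, 36.6 and 52.6 in cho2set2Δ, 15.2 and 12.7 in opi1Δ, and 45.9 and 32.7 in opi1set2Δ. It rose in all 3 backgrounds, by 0.80 ± 0.21, 0.72 ± 0.21 and 1.498 ± 0.22, and it fell in opi1Δ against WT by 0.82 ± 0.23 (edgeR adjusted p = 0.0202). TOD6, which encodes a repressor of ribosome biogenesis genes, also rose in all 3, by 1.74 ± 0.18, 1.46 ± 0.18 and 2.46 ± 0.18. Without that library the cho2set2Δ changes of IFH1 and TOD6 were 0.96 and 1.53, and both passed. CRF1, the corepressor, fell in set2Δ by 1.06 ± 0.16 and in opi1set2Δ by 1.30 ± 0.16, from 325.8 and 406.5 CPM in WT to 154.7 and 196.2 in set2Δ, and did not pass in cho2set2Δ (304.5 and 266.5 CPM, against 299.96 and 298.7 in cho2Δ). RAP1 passed in none of the 3 backgrounds (log2 changes of 0.19, -0.21 and -0.25 in turn). Neither did FHL1 (0.26, 0.43 and 0.36) or SFP1 (0.22, -0.12 and -0.145). DOT6, of the same list, had a log2 change of -0.64 ± 0.24 in opi1set2Δ that passed (edgeR adjusted p = 0.0431). Its changes in set2Δ (0.58 ± 0.24) and cho2set2Δ (0.155 ± 0.24) did not pass.

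Of 8 dedicated chaperones, each of which guards 1 or 2 ribosomal proteins before assembly, 2 rose in set2Δ, 1 in cho2set2Δ and 6 in opi1set2Δ, and 0 fell. SYO1, which carries the RPL5 and RPL11 proteins, was at 6.56 and 5.34 CPM in WT and 26.4 and 25.7 in set2Δ, and rose by 2.13 ± 0.23, 0.96 ± 0.23 (1.14 without that library) and 2.65 ± 0.25 in turn. RRB1, the chaperone of the RPL3 protein, rose in set2Δ by 0.58 ± 0.21 and in opi1set2Δ by 1.58 ± 0.22. Its log2 change of 0.27 ± 0.21 in cho2set2Δ did not pass. TSR2, that of the RPS26 protein, rose in opi1set2Δ by 1.79 ± 0.43. TSR2 did not pass in set2Δ (0.38 ± 0.43) or cho2set2Δ (-0.02 ± 0.42). SQT1 passed in none of the 3 backgrounds (0.08, -0.155 and 0.47 in turn), nor did BCP1 (-0.16, -0.19 and 0.39). ACL4, YAR1 and TSR4 passed only in opi1set2Δ. Of 28 translation factors tested, 11 rose and 2 fell in set2Δ, 4 rose and 1 fell in cho2set2Δ, and 17 rose and 1 fell in opi1set2Δ. TEF1, an elongation factor gene, rose by 1.13 ± 0.19, 0.77 ± 0.19 and 2.24 ± 0.19, the cho2set2Δ call being lost without that library (0.66, edgeR adjusted p = 0.0648). TEF2, of the same list, was at 2158 and 1991 CPM in WT, where TEF1 was at 413 and 256. Its log2 changes of 0.085 ± 0.13, -0.22 ± 0.13 and 0.04 ± 0.13 in turn did not pass. Of 9 ribosome-associated proteins 4 rose and 1 fell in set2Δ, 0 passed in cho2set2Δ, and 5 rose and 2 fell in opi1set2Δ. ASC1, a protein of the small subunit outside the naming rule, rose by 1.09 ± 0.17 in set2Δ and 1.49 ± 0.17 in opi1set2Δ. EGD1, of the nascent chain complex, fell by 0.87 ± 0.14 in set2Δ and 0.67 ± 0.14 in opi1set2Δ.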

How the data were processed

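The authors deposited 1 table with whole-number counts and FPKM per gene for 12 libraries; per the submitters' processing notes cutadapt 1.9.1, HISAT2 2.0.1, HTSeq 0.6.1 and sacCer3 were used, with no settings given in the sources used here. The deposited FPKM matched a recomputation from the counts, exonic size and column totals within 0.005. Groups were the 6 genotypes. The test took genes that reached FPKM 1 in 2 or more libraries (6583, of which SET2, CHO2 and OPI1 are left out of counts) and applied the quasi-likelihood test of edgeR 4.0.16, TMM scaling, 1 mean per genotype in 1 fit of 12 libraries and Benjamini-Hochberg adjustment over all genes tested (threshold 0.05). The common biological coefficient of variation was 0.12 and 6 residual degrees of freedom remained. With groups of 2, the error estimate is shared across genes and all 6 genotypes. The members and lists were chosen with earlier results of these data known. Named genes were, per comparison, the 5 largest rises and 5 largest falls among members that passed, the 10 widest and 3 smallest pair shifts, the 5 most unequal and 3 most equal pairs, the 5 highest and 5 lowest members in WT, and the stalk, ubiquitin fusion, feedback and 5S-related genes and RPL3, RPL10, RPS3, RPS2, RPS26A and RPS26B; the text gives a choice of these, and 2 pairs that the rule names are not reported here. Alternatives were RLE and total count scaling, TMM without the members, no filter, DESeq2 1.42.0, limma 3.58.1 on log2(FPKM + 1) and log2(FPKM + 0.1), a replicate block and each library left out. Coordinates and sequences came from RefSeq R64, in which all 137 members have the deposited coordinates and exonic size. Motif searches covered 500 bases before the start codon. R 4.3.3 and, for sequences and ratios, Python 3.11.15 were used.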

Additional observations from a re-analysis of the deposited data

Results flagged for a closer look

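Of the 137 genes, 3 ribosomal protein genes had a change with SET2 loss that differed between backgrounds by the interaction test (edgeR quasi-likelihood test, adjusted over all genes tested). In the cho2 term 1 was lower (0.73% of the 137), where 0.547% of all genes were lower. In the opi1 term 2 were higher (1.46%), where 2.84% of all genes were higher. These counts are near or below the shares of all genes and are not a result about the group. RPS0B differed by -0.91 on the log2 scale between the cho2Δ and WT backgrounds: its level was higher in both set2Δ libraries than in WT, and lower in both cho2set2Δ libraries than in cho2Δ. RPS22B differed by 0.92 and RPS30A by 0.83 between the opi1Δ and WT backgrounds. The RPS22B and RPS30A terms lost their calls without WT replicate 1 (edgeR adjusted p = 0.134 and 0.173), either set2Δ library, either opi1Δ library or opi1set2Δ replicate 2. The RPS0B term lost its call without WT replicate 2 (edgeR adjusted p = 0.185), set2Δ replicate 1 (0.229), either cho2Δ, either cho2set2Δ (0.165 without the library labelled replicate 1) or either opi1Δ library.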

How the results depend on the processing

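The counts of members that passed kept within 1.5 times under every alternative without a left-out library for set2Δ against WT, opi1set2Δ against opi1Δ and any difference among genotypes. With each library left out in turn these ran from 15 to 86, 82 to 123 and 91 to 123. The other counts were small and moved more; the cause was not tested. For cho2set2Δ against cho2Δ (3) both limma settings gave 1, and single libraries left out 0 to 4. For cho2Δ against WT (0) DESeq2 gave 5 and left-out libraries 0 to 18. For opi1Δ against WT (4) both limma settings gave 1, TMM without the members 2, and left-out libraries 1 to 22. For cho2set2Δ against set2Δ (5) DESeq2 gave 9, limma on log2(FPKM + 1) 1 and on log2(FPKM + 0.1) 0, and left-out libraries 0 to 10. For opi1set2Δ against set2Δ (37) the limma settings gave 14 and 11, and left-out libraries 11 to 52. For the cho2 interaction (1) DESeq2 gave 7, both limma settings 0, and left-out libraries 0 to 25. For the opi1 interaction (2) total count scaling gave 5, DESeq2 6, both limma settings 0, and left-out libraries 0 to 23. The 27 pairs with a shift of A to B became 21 to 29 with a library left out and 27 with 0.5 counts added. Replicate numbers did not pair the libraries (correlation of differences between replicates -0.33 to 0.33 over 15 pairs of genotypes, median 0.01). With a replicate block the counts were 61, 2, 118, 1, 5, 5, 37, 3 and 2 for the 9 comparisons and interactions in the order of set2Δ, cho2set2Δ and opi1set2Δ against their parents, cho2Δ and opi1Δ against WT, cho2set2Δ and opi1set2Δ against set2Δ, and the cho2 and opi1 terms, and 116 for any difference. Of the named results, 33 were followed through the alternatives: per comparison, up to 5 largest rises and 5 largest falls among members that passed. These kept their direction in all 660 combinations with an alternative and lost the call in 124, of which 85 left out a library. The 33 were picked for passing on these same libraries, so their constant direction is a weak check. Other results named in the text were not part of this count.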
